A study of Homo sapiens with 10 samples.

Results

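The genes of R-loop processing and mRNA export are a group of 34 protein-coding genes, listed by symbol for removal of RNA-DNA hybrids, RNA unwinding, mRNA packaging and export, or chromatin work tied to hybrids, and all 34 were found among the 19974 protein-coding genes of the RefSeq table. What was measured is the DNA of these genes, that is, where along them hybrids were pulled down, and not their RNA or protein. They fall by role into 7 nucleases, 11 helicases and topoisomerase factors, 9 mRNA export factors, 4 chromatin and transcription factors and 3 modifying enzymes.

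The data are DRIP-seq of U2OS cells, a human osteosarcoma line, in which the S9.6 antibody pulled down RNA-DNA hybrids from sonicated nucleic acids. The tested cells carried TDP1 H493R, the change that causes the ataxia SCAN1, as 2 lines: SCAN1#1 with a library in each of experiments 1 and 2, and SCAN1#2 with a library in experiment 2. The comparison cells were wild type (WT), with a library in each experiment. The replicate number of a library is its experiment, and the antibody lots of experiment 2 were not the lot of experiment 1, so lot and experiment cannot be told apart. SCAN1#1 supplied 2 of the 3 SCAN1 libraries, the labels do not say how the lines were made or whether replicates were separate cultures, and the p-values therefore measure only the spread between these libraries. The 5 input samples were not analysed here. TDP1 is the enzyme that frees DNA ends from trapped topoisomerase 1, and the question of the series is how its mutation bears on DNA breaks made during transcription.

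An R-loop forms when nascent RNA pairs with the DNA template behind RNA polymerase and leaves the other strand single. RNase H enzymes cut the RNA of the hybrid, helicases pull the strands apart, and the THO complex with its partners packages the RNA for export and so keeps it away from the DNA. In cultured human cells hybrids are commonly mapped over the starts and the ends of active, GC-rich genes.

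The promoters of these genes are shown for the highest and the lowest hybrid coverage, because the 300 bases around the gene start varied over the whole possible range between members. Each window runs from 250 bases before to 50 bases after the start, is read 5′ to 3′ on the strand of the gene, and comes from RefSeq on GRCh38.p14, where 33 of the 34 members had an entry (not THOC7). Capitals mark runs of 4 or more G. The windows of DDX21 (chr10:68955920-68956219, plus strand), DDX39B (chr6:31541954-31542253, minus strand) and THOC6 (chr16:3023785-3024084, plus strand) lay wholly under peaks in all 5 libraries, and that of SUPT6H (chr17:28661955-28662254, plus strand) was covered to 98.3% on average.
DDX21: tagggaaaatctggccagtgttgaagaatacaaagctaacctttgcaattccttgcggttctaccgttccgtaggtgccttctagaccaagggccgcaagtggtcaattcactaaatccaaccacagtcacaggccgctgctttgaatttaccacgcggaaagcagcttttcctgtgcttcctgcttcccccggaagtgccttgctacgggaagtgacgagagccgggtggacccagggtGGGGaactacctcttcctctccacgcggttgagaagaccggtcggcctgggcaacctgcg
DDX39B: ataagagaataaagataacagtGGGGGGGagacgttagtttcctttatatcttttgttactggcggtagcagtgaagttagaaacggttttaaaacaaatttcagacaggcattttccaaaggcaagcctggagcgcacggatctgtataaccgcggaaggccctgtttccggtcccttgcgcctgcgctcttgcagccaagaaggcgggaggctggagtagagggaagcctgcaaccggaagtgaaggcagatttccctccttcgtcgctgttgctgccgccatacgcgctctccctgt
THOC6: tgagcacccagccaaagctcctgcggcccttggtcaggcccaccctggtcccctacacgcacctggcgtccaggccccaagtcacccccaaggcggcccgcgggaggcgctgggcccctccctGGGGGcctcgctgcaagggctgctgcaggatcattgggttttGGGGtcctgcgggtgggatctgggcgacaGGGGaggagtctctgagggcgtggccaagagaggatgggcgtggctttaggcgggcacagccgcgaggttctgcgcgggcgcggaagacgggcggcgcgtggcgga
SUPT6H: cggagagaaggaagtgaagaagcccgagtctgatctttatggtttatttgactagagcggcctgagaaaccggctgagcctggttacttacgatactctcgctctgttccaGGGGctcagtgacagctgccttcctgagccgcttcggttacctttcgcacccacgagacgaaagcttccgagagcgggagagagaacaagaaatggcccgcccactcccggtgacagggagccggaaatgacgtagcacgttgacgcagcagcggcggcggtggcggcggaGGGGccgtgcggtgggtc
The windows of ADAR (chr1:154627948-154628247, minus strand) and AQR (chr15:34969693-34969992, minus strand) had no peak in any library, as had 8 further members, and were the first of these 10 by alphabet.
ADAR: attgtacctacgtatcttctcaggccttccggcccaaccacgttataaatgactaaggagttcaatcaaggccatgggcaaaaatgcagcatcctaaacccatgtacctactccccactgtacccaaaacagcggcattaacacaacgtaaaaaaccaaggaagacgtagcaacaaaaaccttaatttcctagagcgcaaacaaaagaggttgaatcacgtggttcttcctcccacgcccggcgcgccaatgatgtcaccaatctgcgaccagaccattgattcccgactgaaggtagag
AQR: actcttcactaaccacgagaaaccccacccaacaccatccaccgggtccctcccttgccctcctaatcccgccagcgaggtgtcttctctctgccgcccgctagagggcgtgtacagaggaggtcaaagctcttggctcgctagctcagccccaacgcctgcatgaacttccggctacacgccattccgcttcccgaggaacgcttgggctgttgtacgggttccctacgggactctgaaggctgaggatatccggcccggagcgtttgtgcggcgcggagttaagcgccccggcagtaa
The 4 covered windows each held a run of GGGG and these 2 held none. Over the whole group the run did not sort the promoters so cleanly. Of the 11 member promoters with a peak in all 5 libraries, 9 held GGGG (81.8%), against 6 of the 10 with no peak (60%). Among all 15812 promoters with an entry, GGGG was found in 84.5% of those with a peak in all 5 libraries and in 78.6% of those with none. The letters GGGCGG, searched on both strands, were found in 5 of the 11 covered member promoters (45.5%) and in 6 of the 10 without a peak (60%), while in all promoters they were found in 72.4% of covered windows, 53.2% of windows without a peak and 58.5% overall. The motifs can overlap where a run of G leads into GGGCGG. For DDX5, PIF1, TDRD3 and DICER1 the RefSeq window lies inside the outermost start of the gene, by 228, 1415, 924 and 481 bases.

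The deposited peak lists held 63456 to 110745 peaks per library, and each list was cut to its 63456 peaks of highest −log10 p so that list length did not set the coverage. The lowest −log10 p kept was 9.92, 7.75 and 7.69 in the 3 libraries of experiment 2, against 3.87 and 6.13 in those of experiment 1. The sources used here give no read depth. The value used for a gene is the percent of its length, with 1 kb added at both ends, that lay under peaks. Of 6 markers of mesenchymal and bone-forming cells, 5 had peaks, with a mean over the list of 8.12% to 15.1% per library and COL1A2 at 0 in all libraries. VIM (41.4% on average) and SPARC (20.8%) carried most of that mean. TGFBI averaged 7.92%, and RUNX2 and ALPL only 1.27% and 1.04%. Of 6 markers of other lineages, 5 were at 0 in all libraries and the mean was 0% to 1.09%. The other, GFAP, averaged 1.91%, above RUNX2 and ALPL. The TDP1 gene itself was covered to 0.722% in SCAN1#1 of experiment 1 and to 0% in the other 4 libraries, and peak lists cannot show the H493R change. The libraries come from whole cultures, so more cells with a hybrid and more hybrid per cell cannot be told apart.

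Hybrid peaks were found more often on these genes than on protein-coding genes in general. A peak lay in the gene window in all 5 libraries for 27 of the 34 members (79.4%), against 47.9% of protein-coding genes, and in no library for THOC2 and DICER1 alone, against 22.8% of protein-coding genes. The median member was covered to 9.08% (mean of 5 libraries), against 1.29% for all protein-coding genes. Short members carried most of it. The 9 members under 10 kb had a median of 30.7%, against 1.13% for the genes of that length class, and the 16 members of 10 to 50 kb had 13.3%, against 2.38%. The 9 members of 50 to 200 kb had 1.05%, close to the 1.02% of their class. In all, 28 of 34 members lay above the median of their length class, and 9 lay above 90% of it. Across the 34 members coverage fell with gene length (Spearman's rho −0.72), whereas across all protein-coding genes rho was −0.06. These are descriptions of genes that share the same 5 libraries. Expression was not measured here, so the background was not limited to genes active in these cells. A list of 57 related genes, described below, had a median of 5.26%.

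**Figure D1:**
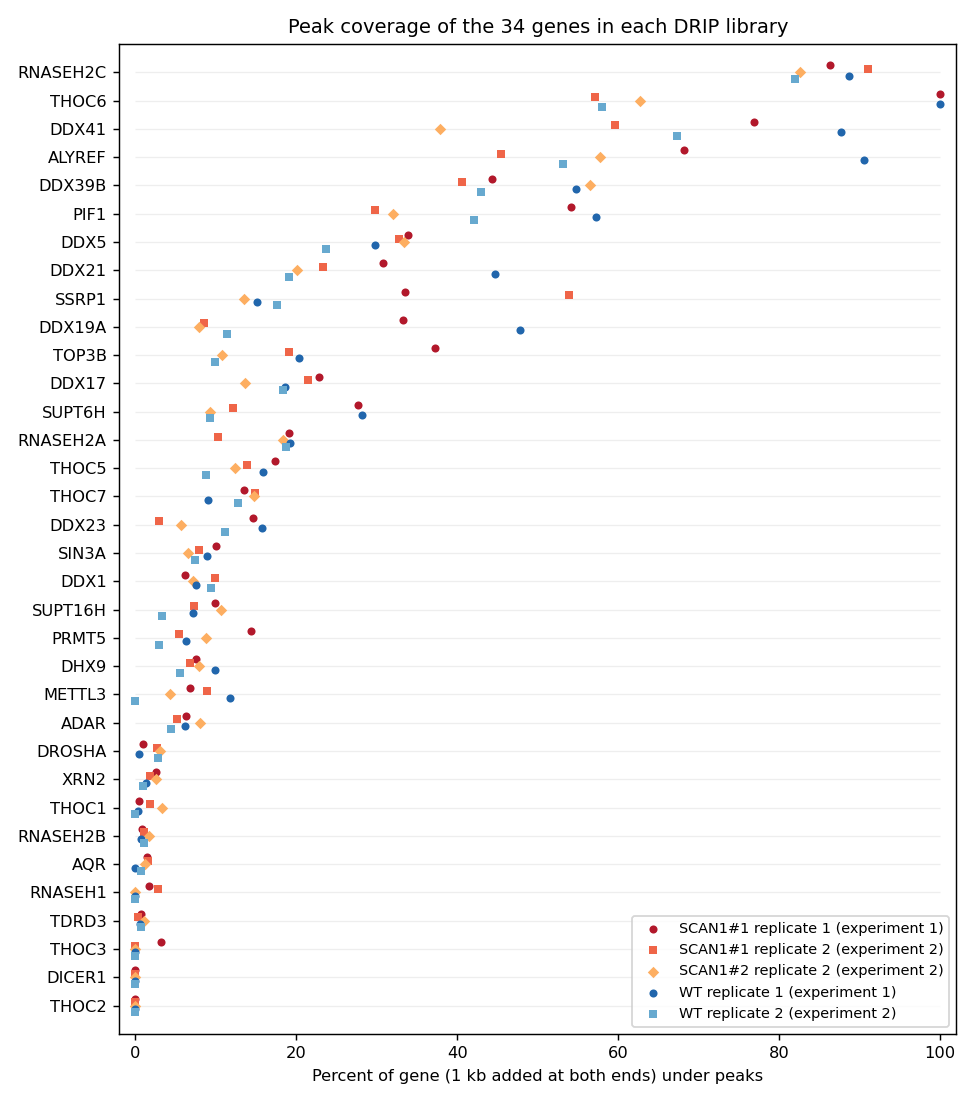
Percent of each gene, with 1 kb added at both ends, under DRIP peaks (horizontal axis) for the 34 genes, ordered by mean, with 1 point per library (red to orange, SCAN1; blue, WT; circles, experiment 1; squares and diamonds, experiment 2). RNASEH2C and THOC6 lie highest, THOC2 and DICER1 are at 0 in all 5 libraries, and for 12 genes both circles lie to the right of all 3 other points.

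Among the nucleases, the RNase H2 subunits differed widely. RNASEH2C, a non-catalytic subunit of RNase H2 (chr11:65717673-65720798, 3.13 kb long), was covered to 86.3% and 91.0% in SCAN1#1 of experiments 1 and 2 and to 82.6% in SCAN1#2, against 88.6% and 82.0% in WT of experiments 1 and 2. All 5 libraries were high and the groups overlapped. The gene lay under a single peak 8.80 to 10.1 kb wide that began near its start and ran past its end, and with the bases shared with its neighbour KAT5 left out the mean was 67.6%, against 86.1% with them. RNASEH2A, the catalytic subunit (chr19:12806584-12813640), was covered to 19.1% and 10.2% in SCAN1#1 of experiments 1 and 2 and to 18.3% in SCAN1#2, against 19.2% and 18.7% in WT. Only SCAN1#1 of experiment 2 stood apart at this list length, and it was the lowest. With the lists as deposited that library was at 21.3%. SCAN1#1 of experiment 1 and SCAN1#2 were then at 19.1% and 18.3%, and WT of experiments 1 and 2 at 35.0% and 24.3%. RNASEH2B, the other non-catalytic subunit, averaged 1.05%. RNASEH1, which acts alone on longer hybrids, was covered to 1.74% and 2.86% in SCAN1#1 of experiments 1 and 2 and to 0% in SCAN1#2 and in both WT libraries. With the lists as deposited RNASEH1 had a peak in all 5 libraries. It was then covered to 1.74% and 5.43% in SCAN1#1, 2.01% in SCAN1#2, and 0.789% and 1.77% in WT. XRN2, the exonuclease that trails the polymerase after the poly(A) site, averaged 1.85% and DROSHA, which cuts primary microRNA transcripts, 1.97%. DICER1, which cuts microRNA precursors, had no peak in any library at this list length, and in 1 of the 5 lists as deposited.

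The 11 helicase and topoisomerase genes ranged in mean coverage from 0.648% (TDRD3) to 65.8% (DDX41), with a median of 18.9%. DDX41, a DEAD-box helicase (chr5:177511577-177516961), was covered to 76.8% and 59.6% in SCAN1#1 of experiments 1 and 2 and to 37.9% in SCAN1#2, against 87.6% and 67.2% in WT of experiments 1 and 2. SCAN1#2 was the lowest and WT of experiment 1 the highest, and the groups overlapped. Its coverage came from a start peak and from a second peak that in 4 libraries was 9.88 to 16.6 kb wide and ran past the end of the gene. In SCAN1#2 the second peak was 2.08 kb wide and stayed inside the gene. PIF1, a helicase that unwinds G-quadruplexes and hybrids (chr15:64815632-64827062), was covered to 54.1% and 29.8% in SCAN1#1 of experiments 1 and 2 and to 32.0% in SCAN1#2, against 57.3% and 42.1% in WT. The 2 libraries of experiment 1 were the highest. Its strongest peak began 2.63 to 3.19 kb inside the gene in all 5 libraries, with a fold enrichment over the background of the peak caller, as deposited, of 18.1 to 33.0.

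DDX5, an RNA helicase and splicing factor that also unwinds hybrids (chr17:64498254-64506866), was covered to 33.9% and 32.7% in SCAN1#1 of experiments 1 and 2 and to 33.4% in SCAN1#2, against 29.7% and 23.7% in WT. All 3 SCAN1 libraries lay above both WT libraries, and the SCAN1 mean was 33.3% ± 0.598 (SD, n = 3), against a WT mean of 26.7% ± 4.28 (SD, n = 2). The peak at its start was 1.84 to 3.03 kb wide with a fold enrichment of 28.1 to 45.8. WT of experiment 2 was the lowest, where a gap at the start split that peak into a pair. DDX17, the paralog of DDX5, was covered to 22.9% and 21.4% in SCAN1#1 of experiments 1 and 2 and to 13.6% in SCAN1#2, against 18.6% and 18.4% in WT, so the 2 SCAN1 lines lay on opposite sides of WT. Its start peak reached a fold enrichment of 14.8 to 43.7.

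DDX21, a nucleolar helicase that acts in ribosomal RNA transcription (chr10:68956170-68985068), was covered to 30.8% and 23.3% in SCAN1#1 of experiments 1 and 2 and to 20.01% in SCAN1#2, against 44.7% and 19.0% in WT. Again the libraries of experiment 1 were the highest, and the groups overlapped. Its start, within 1 kb on both sides, was covered to 74.8%, 72.5% and 75.3% in the SCAN1 libraries, against 100% and 75.5% in WT, while 7 to 12 peaks lay along the gene. TOP3B, the topoisomerase that relaxes both DNA and RNA (chr22:21957025-21982787), was covered to 37.2% and 19.1% in SCAN1#1 of experiments 1 and 2 and to 10.7% in SCAN1#2, against 20.3% and 9.83% in WT. Both libraries of experiment 1 held 13 peaks on it and those of experiment 2 held 3 to 5. TDRD3, the scaffold that binds TOP3B, averaged 0.648% over a gene of 178 kb. DDX23 and DDX1 averaged 10.0% and 8.05%. DHX9, which unwinds hybrids and structured RNA, averaged 7.54%, with a start peak 14.6 to 24.1 times over the background. AQR, a helicase of the spliceosome, averaged 0.956%.

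The 9 mRNA export genes ranged in mean coverage from 0% (THOC2) to 75.5% (THOC6), with a median of 13.6%. THOC6, a subunit of the THO complex (chr16:3024035-3027750), was covered to 100% and 57.1% in SCAN1#1 of experiments 1 and 2 and to 62.6% in SCAN1#2, against 100% and 57.9% in WT. The gene lay whole inside a single peak of 17.6 kb in SCAN1#1 and 20.1 kb in WT of experiment 1. In all 3 libraries of experiment 2 a peak of 5.10 to 5.18 kb reached from upstream over the gene start, and a separate peak lay over the gene end. The peak at the start had the highest fold enrichment of all members, 114 to 184, and since HCFC1R1 and BICDL2 share the window, the mean was 58.8% with their bases left out, against 75.5% with them. ALYREF, the adaptor that hands mRNA to the export receptor (chr17:81887835-81891587), was covered to 68.2% and 45.4% in SCAN1#1 of experiments 1 and 2 and to 57.7% in SCAN1#2, against 90.6% and 53.1% in WT. In WT of experiment 1 the gene lay mostly under 1 peak of 9.05 kb, and the groups overlapped. DDX39B, the helicase that loads ALYREF on mRNA (chr6:31530226-31542003), was covered to 44.3% and 40.6% in SCAN1#1 of experiments 1 and 2 and to 56.5% in SCAN1#2, against 54.7% and 42.9% in WT. SCAN1#2 and WT of experiment 1 were the highest, and the gene held 4 to 8 peaks.

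DDX19A, of the helicases that remodel mRNA-protein complexes at the nuclear pore (chr16:70346903-70373383), was covered to 33.2% and 8.57% in SCAN1#1 of experiments 1 and 2 and to 7.85% in SCAN1#2, against 47.8% and 11.4% in WT. The 2 libraries of experiment 1 stood far above the others, with 10 and 13 peaks against 3 in each library of experiment 2, and with a peak of 7.85 kb in SCAN1#1 and 10.4 kb in WT that began just past the gene end. Of the other THO subunits, THOC5 averaged 13.6% and THOC7 13.0%. THOC7 was covered to 13.5% and 14.9% in SCAN1#1 of experiments 1 and 2 and to 14.7% in SCAN1#2, against 8.99% and 12.8% in WT, so all SCAN1 libraries lay above both WT libraries. THOC1 averaged 1.16%. THOC3 had a single peak, in SCAN1#1 of experiment 1, which covered 3.12% of it, and 0% in the other 4 libraries. THOC2, the largest THO subunit, on chromosome X and 132 kb long, had no peak in any library, also in the lists as deposited.

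The chromatin and transcription factors had intermediate coverage. SSRP1, a subunit of the histone chaperone FACT (chr11:57325988-57335892), was covered to 33.4% and 53.9% in SCAN1#1 of experiments 1 and 2 and to 13.5% in SCAN1#2, against 15.1% and 17.5% in WT. Both SCAN1#1 libraries were above WT and SCAN1#2 was below both WT libraries. SUPT16H, the other FACT subunit (chr14:21351476-21384019), was covered to 9.85% and 7.30% in SCAN1#1 of experiments 1 and 2 and to 10.7% in SCAN1#2, against 7.15% and 3.33% in WT, with all SCAN1 libraries above both WT libraries. SUPT6H, a histone chaperone that travels with the elongating polymerase (chr17:28662205-28702679), was covered to 27.6% and 12.1% in SCAN1#1 of experiments 1 and 2 and to 9.22% in SCAN1#2, against 28.1% and 9.25% in WT. At this list length the genotypes were nearly level within each experiment and the experiments were apart. With the lists as deposited, SCAN1#1 was at 27.6% and 20.9% in experiments 1 and 2 and SCAN1#2 at 12.6%. WT was then at 30.1% and 10.2%, so SCAN1#1 and WT were no longer level in experiment 2. SIN3A, a scaffold of histone deacetylase complexes, averaged 8.13% over 86.4 kb, above 95.8% of its length class, and its strongest peak lay just past the gene end in all 5 libraries, in the window shared with MAN2C1. Of the modifying enzymes, PRMT5, an arginine methyltransferase (chr14:22920529-22929376), was covered to 14.4% and 5.46% in SCAN1#1 of experiments 1 and 2 and to 8.74% in SCAN1#2, against 6.31% and 2.87% in WT, with overlapping groups. METTL3, the RNA m6A methyltransferase, averaged 6.31% and ADAR, which edits double-stranded RNA, 6.02%.

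SCAN1 was then set against WT. Of the 34 members, 24 had a mean coverage of at least 2% and were tested in limma together with the other genes past that filter, 8472 in all, and 10 were not tested (AQR, RNASEH1, RNASEH2B, THOC1, THOC2, THOC3, XRN2, TDRD3, DICER1 and DROSHA). No member passed an adjusted p of 0.05 in either direction, against 0.0% of tested genes higher and 0.0% lower in SCAN1. At an unadjusted p under 0.05, 0 of the 24 members were counted, against 295 genes (3.48%), and the smallest adjusted p was 1 among the members and 0.358 among all tested genes. The differences were balanced, with 12 members higher and 12 lower in SCAN1. The median difference was −0.167 percentage points, against 0.0810 over all tested genes.

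The sizes were wide open at 3 against 2 libraries, in a fit with no term for the experiment. The SEs and intervals given here therefore include the spread between experiments. SSRP1 averaged 33.6% ± 20.2 in SCAN1 (SD, n = 3) and 16.3% ± 1.70 in WT (SD, n = 2), a difference of 17.3 points (SE 12.7, 95% interval −14.7 to 49.3). DDX41 averaged 58.1% ± 19.5 in SCAN1 (n = 3) and 77.4% ± 14.4 in WT (n = 2), a difference of −19.3 points (SE 13.96, 95% interval −54.4 to 15.8). These were the largest differences in either direction among the members, and neither exceeded the spread between libraries. ALYREF differed by −14.8 points (SE 14.2), DDX19A by −13.0 points (SE 13.8), PIF1 by −11.0 points (SE 12.1) and DDX21 by −7.17 points (SE 9.91). TOP3B differed by 7.25 points (SE 9.10), DDX5 by 6.61 points (SE 7.06), PRMT5 by 4.94 points (SE 3.13) and SUPT16H by 4.04 points (SE 2.18, 95% interval −1.44 to 9.52). For THOC6, DDX39B, SUPT6H, RNASEH2A, RNASEH2C and DDX17 the difference was between −5.71 and 1.32 points.

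Libraries of the same experiment were also set side by side, with no test and with a single WT library shared by both lines in experiment 2. DDX41 in SCAN1#1 minus WT was −10.8 points in experiment 1 and −7.62 points in experiment 2, and −29.3 points in SCAN1#2. DDX5 in SCAN1#1 minus WT was 4.14 and 9.01 points in experiments 1 and 2, and 9.72 points in SCAN1#2. SUPT16H in SCAN1#1 minus WT was 2.70 and 3.97 points in experiments 1 and 2, and 7.35 points in SCAN1#2. These 3 genes kept 1 direction within both experiments. So did PIF1, DDX19A, DDX23 and RNASEH2A, lower in SCAN1, and TOP3B, THOC5, THOC7, PRMT5 and ADAR, higher in SCAN1. The share over all tested genes was not counted. With the lists as deposited, DDX41, TOP3B and ADAR no longer kept 1 direction. DDX41 in SCAN1#1 of experiment 2 was then at 68.7%, against 67.2% in WT. TOP3B in SCAN1#2 was at 10.7%, against 17.5% in WT of experiment 2. ADAR in SCAN1#1 was at 6.28% and 6.08% in experiments 1 and 2, against 7.29% and 6.54% in WT. SSRP1 did not keep 1 direction: SCAN1#1 was 18.3 and 36.3 points above WT and SCAN1#2 was −4.01 points from it. SSRP1 also depended on the peak set and on 1 library: its difference of 17.3 points was 4.67 points with the lists as deposited and 7.14 points without SCAN1#1 replicate 2. The −19.3 points of DDX41 were −9.22 points without SCAN1#2 and −9.14 points without WT replicate 1. With the experiment as a block, THOC6 differed by 1.11 points, against −5.71 without it, and SUPT6H by 0.595 points, against −2.37 without it.

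**Figure D2:**
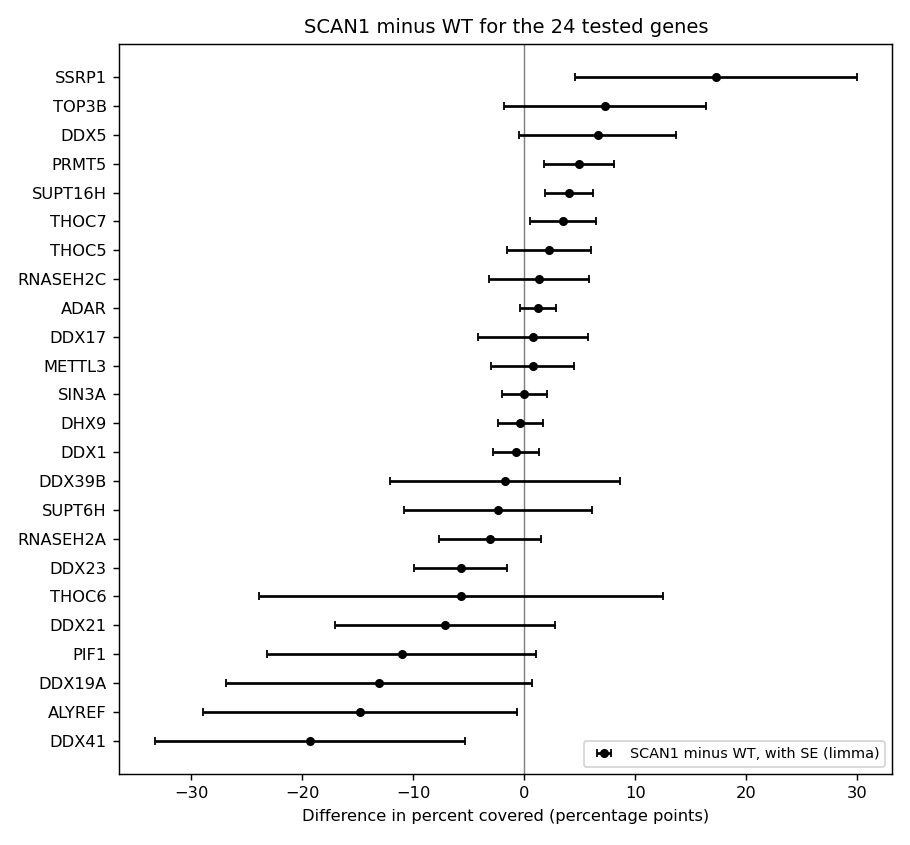
SCAN1 minus WT in percentage points of coverage (horizontal axis) for the 24 tested genes, as points with the standard error of the limma fit as bars (3 SCAN1 and 2 WT libraries). The fit had no term for the experiment, so the bars include the spread between experiments. SSRP1 has the highest difference, 17.3 points, and DDX41 the lowest, −19.3 points, and THOC6 has the longest bar, with an SE of 18.2 points.

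All 3 SCAN1 libraries lay above both WT libraries for 3 of the 24 tested members (DDX5, THOC7 and SUPT16H; 12.5%), against 9.48% of tested genes, and below both for 0 of the 24, against 6.86%. With the lists as deposited, they lay above for 4 (DDX5, THOC7, SUPT16H and PRMT5), against 8.66% of tested genes, and below for 2 (DHX9 and RNASEH2A), against 5.95%. With the peaks of a −log10 q of at least 5, they lay above for 2 (DDX5 and PRMT5), against 8.64%, and below for 1 (RNASEH2A), against 5.58%. DDX5 was the member above WT under all 3 peak sets. Among the untested members the order held for AQR, THOC1 and XRN2, at coverages of 0% to 3.24%, and with the lists as deposited for XRN2 but not for AQR or THOC1. The share over all untested genes was not counted, so how common this order is at such low coverage is not known. DDX5 and its neighbours MILR1 and CEP95 share part of the window, and DDX5 averaged 25.3% with those bases left out, against 30.7% with them.

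Experiment 2 was set against experiment 1 with genotype as a term in the limma fit, a comparison added after the data were seen. Coverage was lower in experiment 2 for 21 of the 24 tested members, and the median difference was −4.13 points, against −1.14 points over all tested genes. The median over all tested genes was thus also below 0, and the share of them that was lower was not counted. No member passed an adjusted p of 0.05 (smallest 0.0839, THOC6), and 0.0% of tested genes did. At an unadjusted p under 0.05, 9 of the 24 were counted (37.5%), against 21.5% of tested genes. All 3 libraries of experiment 2 lay below both libraries of experiment 1 for 12 of the 24 members (50%), against 28.1% of tested genes, and above for 0 of the 24, against 13.2%.

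The differences given for single genes are those of the fit, which takes genotype into account and so need not equal the difference of the plain means. THOC6 averaged 59.2% in experiment 2 and 100% in experiment 1, with a fitted difference of −41.0 points (SE 4.27). DDX19A averaged 9.26% in experiment 2 and 40.5% in experiment 1, with a fitted difference of −29.9 points (SE 4.47, limma adjusted p = 0.0983). SUPT6H averaged 10.2% in experiment 2 and 27.9% in experiment 1, with a fitted difference of −17.8 points (SE 3.02, limma adjusted p = 0.108). ALYREF, DDX41, PIF1, TOP3B and DDX21 differed by −25.5 to −16.2 points with adjusted p of 0.176 to 0.233. DDX1, THOC7 and SSRP1 were the 3 members with a fitted difference above 0, at 1.19 to 2.36 points (SE 1.71, 2.30 and 13.6 points).

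**Figure D3:**
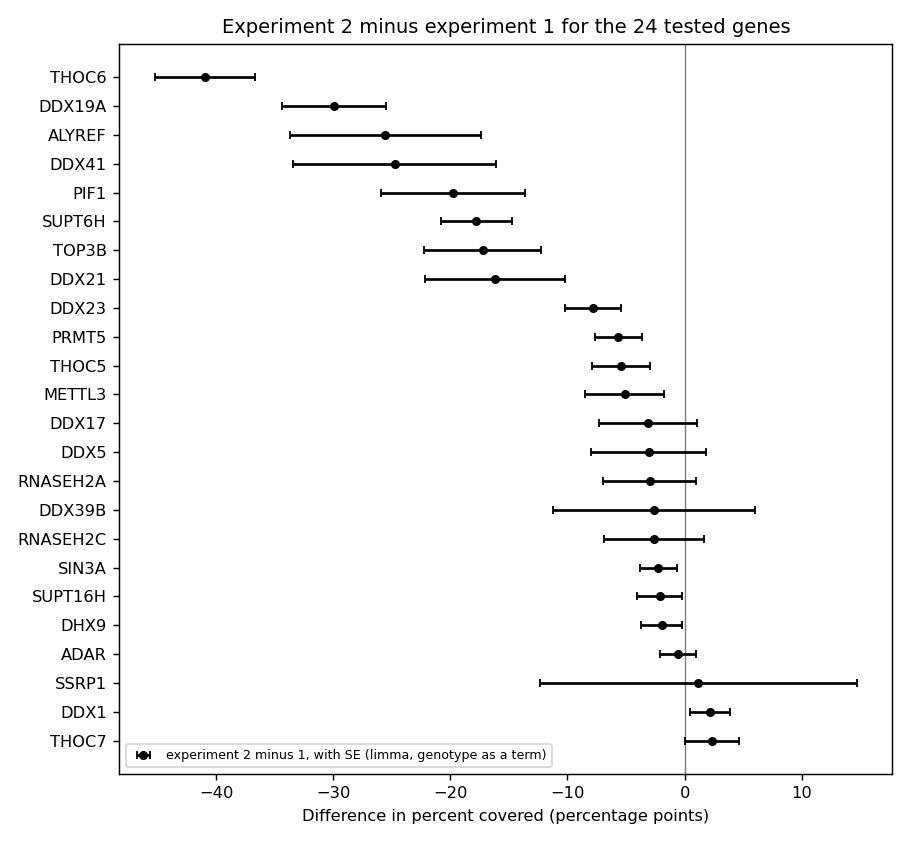
Experiment 2 minus experiment 1 in percentage points of coverage (horizontal axis) for the 24 tested genes, as points with the standard error of the limma fit with genotype as a term as bars (3 libraries of experiment 2 and 2 of experiment 1). Points lie left of 0 for 21 genes, and THOC6 is farthest at −41.0 points. The share of all tested genes left of 0 was not counted.

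Besides the antibody lot, the lowest −log10 p kept moved with the experiment, so the counts by experiment were repeated with the other peak sets. With the lists as deposited, the libraries of experiment 2 all lay below for 7 of the 24 members, against 18.7% of tested genes, and all above for 0, against 20.3%. With the peaks of a −log10 q of at least 5, they all lay below for 8 members, against 13.0% of tested genes, and all above for 3 (DDX1, THOC7 and ADAR), against 25.6%. DDX19A, DDX21, DDX23, DDX41, THOC6, PIF1 and SUPT6H lay below under all 3 peak sets. What part lot, peak number or culture had in this was not tested.

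Along the members, experiment 2 lay wholly below experiment 1 more often in the interior and at the end than at the start. Starts and ends were taken as 1 kb on both sides of the gene's ends and the interior as what lay between, for the 23 tested members with a strand. These parts were read from the cut lists alone, in which the lowest −log10 p kept was higher in experiment 2. They were not repeated with the other peak sets. What part the cut had in the order of the experiments was not tested. Averaged over these members, the interior was covered to 18.4%, 18.5% and 19.2% in SCAN1#1, SCAN1#2 and WT of experiment 2, against 30.8% and 33.7% in SCAN1#1 and WT of experiment 1. The end was covered to 27.5%, 21.8% and 23.2% in experiment 2, against 44.4% and 40.5% in experiment 1. The start was covered to 47.9%, 48.1% and 39.3% in experiment 2, against 42.3% and 46.0% in experiment 1, and these overlapped. Over 6564 tested genes with a strand the averages had a like order. Their interior averaged 15.5%, 12.8% and 13.9% in experiment 2, against 19.0% and 18.5% in experiment 1, and their end 19.0%, 14.7% and 16.1%, against 24.1% and 23.4%. All libraries of experiment 2 lay below those of experiment 1 in the interior for 12 of the 23 members, against 25.1% of tested genes, at the end for 7, against 13.9%, and at the start for 2, against 11.6%. At the start they all lay above for 4 of the 23 (DDX1, DDX39B, SSRP1 and SIN3A), against 9.60% of tested genes. They all lay above at the end for 1 (DDX5), against 1.72%, and in the interior for 0, against 11.0%.

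**Figure D4:**
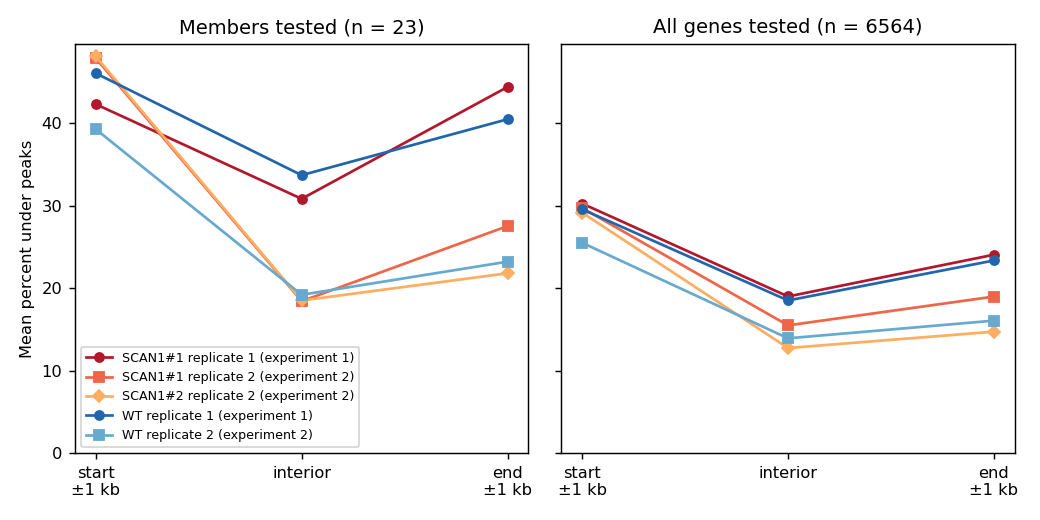
Mean percent under peaks (vertical axis) at the gene start, in the interior and at the gene end, for the 23 tested members with a strand (left) and for 6564 tested genes with a strand (right), 1 line per library. In both panels both libraries of experiment 1 lie above all libraries of experiment 2 in the interior and at the end, while at the start the experiments overlap. Only the cut lists were used.

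The same could be read from single genes, again in the cut lists alone. The interior of SUPT6H was covered to 9.60%, 5.03% and 6.68% in SCAN1#1, SCAN1#2 and WT of experiment 2, against 24.6% and 22.9% in SCAN1#1 and WT of experiment 1, while its start overlapped between the experiments. The interior of THOC6 was covered to 0%, 1.98% and 0% in experiment 2, against 100% in both libraries of experiment 1, while its start was covered to at least 95.4% in all 5. The end of DDX19A was covered to 0% in all 3 libraries of experiment 2, against 68.3% and 65.7% in experiment 1.

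**Figure D5:**
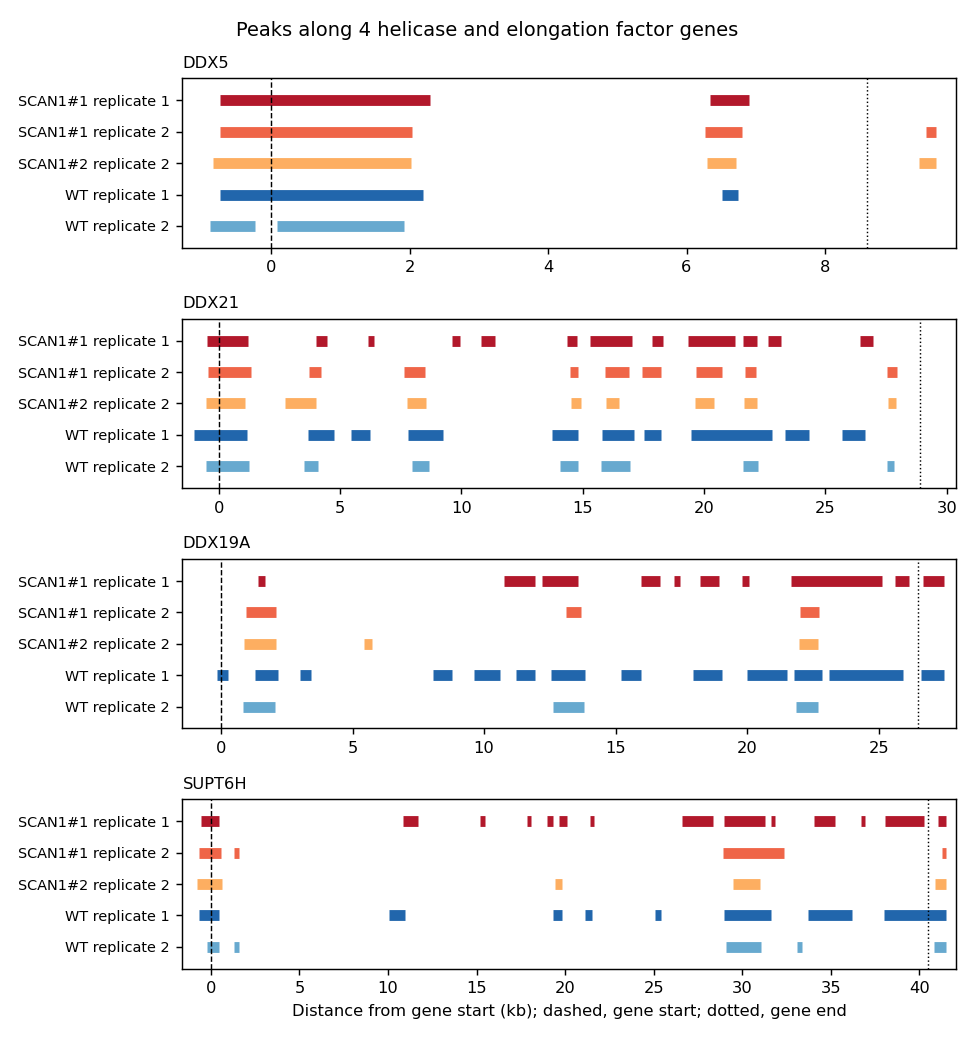
Peaks (bars) along DDX5, DDX21, DDX19A and SUPT6H in the 5 libraries, by distance from the gene start in kb (horizontal axis; dashed line, gene start; dotted line, gene end; bars are cut 1 kb outside the gene). The start peaks of DDX5, DDX21 and SUPT6H are present in every library, and DDX19A has 10 and 13 peaks in the libraries of experiment 1 and 3 in each of experiment 2.

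Most members were covered highest at the start. Of the 33 members with a strand, 21 had their highest mean coverage at the start, 6 at the end and 3 in the interior, and 3 had none or a tie. Of 12101 protein-coding genes with a strand and any coverage, 42.0% were highest at the start, 18.0% at the end and 39.6% in the interior. DDX5 (86.6% at the start, 4.18% at the end), DDX21 (79.6% and 0.70%) and DHX9 (70.8% and 31.8%) were of the first kind. ALYREF (42.8% at the start, 93.5% at the end) and DDX41 (55.2% and 81.3%) were highest at the end, and PIF1 was highest in the interior, at 53.3%. In the window of 300 bases around the start, 11 of 33 member promoters had a peak in all 5 libraries (33.3%), against 10.6% of all 15812, and 10 had none (30.3%), against 71.0%. The median GC content was 59.0% in the 11 and 62.0% in the 10, against 65.7% and 61.0% in all promoters of these kinds. The median GC skew, (G − C)/(G + C) on the strand of the gene, was 0.0109 in the 11 and −0.116 in the 10, against 0 and 0.0104 in all promoters of these kinds, which have the opposite order. For RNASEH2C, which had the highest skew of all members (0.399) and 11 runs of G, 51.2% of the window lay under peaks on average.

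The peaks carry no strand, and a gene cannot be told apart from one that overlaps it. Another protein-coding gene lay in the window of 16 of the 34 members, and a gene of any kind in that of 27.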

How the data were processed

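DRIP-seq peaks of 5 libraries (3 SCAN1, 2 WT) of U2OS cells were used. Per the submitters' processing notes, MACS3 3.0.0a6, deepTools 3.5.1, SAMtools 1.9, BWA 0.7.17-r1188 and FastQC 0.11.5 were used with build hg38. The sources used here give neither their options nor the control of peak calling. Each deposited list, 1 per library and not pooled, gives per peak the fold enrichment, a ratio over the caller's background. It also gives the deposited −log10 p and −log10 q values, and a deposited score that equals 10 times −log10 q, rounded down, for 99.97% or more of peaks. Lists without read counts allow no depth or counting interval.

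From the lists, each cut to its 63456 peaks of highest −log10 p, the percent of each gene (RefSeq GRCh38.p14, 1 kb added at both ends) under peaks was computed. Genes whose mean reached 2% entered limma 3.58.1 in R 4.3.3 (lmFit, then eBayes with a trend), tested on simulated data. Their p-values were adjusted by Benjamini-Hochberg over 8472 protein-coding genes at a threshold of 0.05. Other steps used matplotlib 3.10.9, scipy 1.17.1, pandas 2.3.3, numpy 2.4.6 and Python 3.11.15. Alternatives changed the peak set, flank, window, scale, filter, overlapping bases, library set and replicate block. The experiment comparison and the leave-one-out of coverage and promoter counts were added after the data were seen.

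The 34 members, their grouping and the lists were chosen with earlier results of these data known. Values in every library are given for the 14 members of highest mean coverage, the 5 tested members of largest difference in each direction and the members with no peak in 3 or more libraries. DDX17 and other members named for a count or an order were partly chosen after their values were seen, as was THOC7. The printed promoters are the 4 of highest and the 2 of lowest mean coverage.

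Replicate numbers are experiment numbers in the labels, so they pair the libraries. Over the 8472 genes, how far SCAN1#1 lay from its group mean correlated with the same for WT by 0.612 in experiment 1 and 0.325 in experiment 2, and for SCAN1#2 by 0.470. Deviations from a group mean cancel within the group, so these values depend on each other and are not separate support for the pairing.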

Additional observations from a re-analysis of the deposited data

Results flagged for a closer look

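For 5 of the tested members the SCAN1 lines lay on opposite sides of WT of the same experiment: SCAN1#1 on one side in both experiments and SCAN1#2 on the other in experiment 2. These differences between the lines were not tested. How many of all tested genes had such a pattern was not counted, so it cannot be read as a trait of the members. SCAN1#2 has 1 library. SCAN1#2 minus WT in experiment 2 was −4.80 points of coverage for DDX17 and −4.01 points for SSRP1, where SCAN1#1 minus WT was 4.30 and 3.07 points for DDX17 and 18.3 and 36.3 points for SSRP1 in experiments 1 and 2. For SIN3A it was −0.842 points in SCAN1#2, and 1.13 and 0.487 points in SCAN1#1. The export genes DDX39B and ALYREF went the other way, with 13.5 and 4.52 points in SCAN1#2. In SCAN1#1 the differences were −10.4 and −2.34 points for DDX39B and −22.4 and −7.74 points for ALYREF. With the lists as deposited, DDX17, SSRP1, DDX39B and ALYREF kept this pattern. SIN3A did not, with SCAN1#1 of experiment 1 at 10.0%, against 10.5% in WT.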

How the results depend on the processing

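No member passed an adjusted p of 0.05 under any of the 14 alternatives of the genotype fit (smallest 0.751) or the 13 of the experiment fit (smallest 0.0653). On the log2 scale 3 genes were called higher and 1 lower in SCAN1, none of them members, against 0 and 0, and 2 genes were called between experiments, against 0. The cause was not tested. With the replicate block the median difference of the tested members was 0.855 points, against −0.167 without it, and this changed no call. That median has no settled sign. Leaving out 1 library gave −2.27 (without WT replicate 2) to 4.42 points (without WT replicate 1), gene ends alone gave 3.65, and the lists as deposited 0.196. Without WT replicate 1, ALYREF, DDX19A, DDX21, THOC6, DDX39B and SUPT6H were higher in SCAN1 instead of lower. Of 16 members followed, 6 kept their sign throughout (DDX41, PIF1, SSRP1, DDX5, PRMT5 and SUPT16H), but not their size. With 1 library left out, SSRP1 lay at 7.14 to 27.3 points, DDX41 at −29.5 to −9.14, PIF1 at −18.8 to −3.44, DDX5 at 3.58 to 9.64, PRMT5 at 2.51 to 6.97 and SUPT16H at 2.13 to 5.95. Median coverage was 11.9% with the lists as deposited, which hold more peaks, and 22.7% at gene ends alone, a different part of the gene, against 9.08%. When 150 of the 300 promoter bases had to be covered, 7 promoters counted in all 5 libraries, against 11. The median difference between experiments stayed below 0 in all 13 alternatives, at −6.36 to −1.82 points, and at −0.51 on the log2 scale. Precision is limited by 3 against 2 libraries and unknown read depth. In the genotype fit without the replicate block it is also limited by the spread between experiments.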

Other observations

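A list of 58 further genes of hybrid removal, RNA export and RNA binding was read beside the members, of which 57 were matched and 46 tested. Their median coverage was 5.26%. SRSF2, a splicing factor, averaged 70.1%, NCL, the nucleolar protein nucleolin, 61.0%, and DDX39A, the paralog of DDX39B, 58.9%. CHTOP and NXT1, both of mRNA export, averaged 39.8% and 34.2%. In limma 0 of the 46 passed an adjusted p of 0.05 and 1 had an unadjusted p under 0.05, against 3.48% of all tested genes, with 17 higher and 29 lower in SCAN1 and a median difference of −0.477 points.

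The lowest differences were at the export genes DDX39A (50.4% in SCAN1 and 71.6% in WT, −21.2 points, SE 13.2), NXF1, the export receptor (20.4% and 33.4%, −12.9 points, SE 11.4), and SRSF3 (13.6% and 23.2%, −9.57 points, SE 5.43). The highest were at RBMX (14.2% in SCAN1 and 8.32% in WT, 5.89 points, SE 3.76), NCL (5.62 points, SE 8.39) and NONO (4.84 points, SE 3.19). All 3 SCAN1 libraries lay above both WT libraries for 8 of the 46, against 9.48% of all tested genes, and below for 3, against 6.86%. None of these differences passed the test.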
